A study of Mus musculus with 2 samples.

Results

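The interleukin-6 family of cytokines, its receptors and the factors acting directly below them were examined in cultured mouse ovary as 10 genes: the ligands Il6, Lif, Osm and Il11, the receptor subunits Il6st, Il6ra, Lifr and Osmr, the transcription factor Stat3 and the feedback inhibitor Socs3. The genes were chosen by name, through the RefSeq transcript of each array probe, and not by their signal. They were represented by 13 of the 55674 probes of the array, printed at 23 spots, and are 10 of the 20658 genes that could be named. The tissue was ovary of female mice at 2 weeks of age, divided along its length and held in organ culture for 3 days in the presence of ligands of the tachykinin receptors (TKRs). The ovary pieces of 1 group received agonists of TACR1, TACR2 and TACR3 and those of the other group received antagonists of the same receptors, each ligand at 1 μM. The agonists were [Sar9, Met(O2)11]-SP for TACR1, GR-64349 for TACR2 and a succinyl-substituted substance P fragment for TACR3, and the antagonists were a selective TACR1 blocker, GR-94800 for TACR2 and SB218795 for TACR3. Total RNA of each group was labelled with Cy3 and hybridised to 1 single-colour oligonucleotide array, so there was no replicate and the data allow no test and no p-value. The strain of these mice and the number of ovaries behind each RNA are not given in the sources used here. The data hold no array of untreated ovary, so a ratio shows how agonists and antagonists differ and not which of them moved a gene.

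Cytokines of this family signal through a shared receptor subunit, gp130, which Il6st encodes. The ligands also use further subunits, such as the interleukin-6 receptor (Il6ra), the LIF receptor (Lifr) or the oncostatin M receptor (Osmr). The complex with gp130 activates Janus kinases (JAKs), which phosphorylate STAT3. Phosphorylated STAT3 enters the nucleus and induces target genes, among them Socs3, whose protein binds gp130 and the kinases and ends the signal. In the ovary, LIF is known as a factor that favours the growth of early follicles. The study asked, among other things, which JAKs and STATs act below the TKRs, and the comparison given here is of the transcripts of a cytokine system that uses such proteins. Phosphorylation is not measured by an array.

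As context for these genes, the RefSeq promoter entries (GRCm38.p6) of the family were searched on both strands for TTCNNNGAA, the letters of a STAT binding element, and, chosen after the sequences were seen, for TGANTCA, the letters of an AP-1 element. Both motifs read the same on either strand. The window was the 250 bases before the transcript start, and 9 of the 10 genes matched, with 11 entries. TTCNNNGAA was found in 1 of the 11 entries, that of Socs3, and in 7.02% of all 32851 promoter entries. TGANTCA was found in 3 of the 11 entries, those of Il6, Lif and 1 of the 2 of Il11, and in 6.75% of all entries. The match in Socs3, TTCTTAGAA, spans bases 154 to 146 before the start and is in capitals below, within the whole window at chr11:117969367-117969616 on the minus strand. It is shown because Socs3 is the STAT3 target with a place in the family itself.
Socs3: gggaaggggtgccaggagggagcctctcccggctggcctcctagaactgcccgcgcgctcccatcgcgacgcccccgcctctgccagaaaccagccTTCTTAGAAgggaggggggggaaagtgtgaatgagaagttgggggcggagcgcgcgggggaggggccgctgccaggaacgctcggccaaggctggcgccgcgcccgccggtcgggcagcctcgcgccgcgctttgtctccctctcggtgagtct

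The AP-1 letters of the ligand genes are shown in capitals with the bases around them, since these 3 ligands share them within the window. They lie at chr5:30012864-30012891 on the plus strand for Il6, chr11:4257320-4257366 on the plus strand for Lif and chr7:4778213-4778259 on the minus strand for Il11. The shared letters went with no shared direction, because Lif was lower and Il11 higher with the agonists, as given below. A match of letters is a description of the sequence and not evidence that a factor binds there.
Il6: cTGAGTCActtttaaagaaaaaaaagaa
Lif: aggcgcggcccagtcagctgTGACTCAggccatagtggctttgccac
Il11: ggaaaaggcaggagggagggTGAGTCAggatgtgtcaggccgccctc

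Of the 10 genes, 8 were well above background on both arrays, against 73.9% of all genes that could be named. Osm was well above it on the agonist array only and Il6 on neither. Signals are given as the processed spot signal in linear units, before scaling, with the error that the image analysis software estimates for the spot. Log2 ratios are agonists minus antagonists after each array was scaled on its 75th percentile, at 672 (agonists) and 569 (antagonists) signal units. The software error of a ratio covers the error of a spot, close to 0.20 on the log2 scale for bright spots, and not the spread between ovaries. By this measure 6 of the 8 genes were higher with the agonists and 2 were lower, against 37.7% higher among all 15258 genes well above background on both arrays. None of the 8 differed by 2-fold in either direction, while 4.01% of all genes were past 2-fold upwards and 0.577% past it downwards. At 1.5-fold, Socs3, Il11 and Osmr were higher and none was lower, against 9.26% and 4.28% of all genes. Which genes passed 1.5-fold depended on the processing. Il11 had a log2 ratio of 0.37 with the normexp background correction and Osmr one of 0.54 with scaling on the median, both short of it. Il6ra had 0.62 to 0.83 and passed it with no scaling, 4 other scalings or the authors' values. Stat3 had 0.59 to 0.73 and passed it with no scaling, some other scalings or the median over the probes of a gene. The median of the 8 log2 ratios was 0.50, against -0.10 for all genes. They are counts from 1 array a group, with no measure of how cultures vary.

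**Figure D1:**
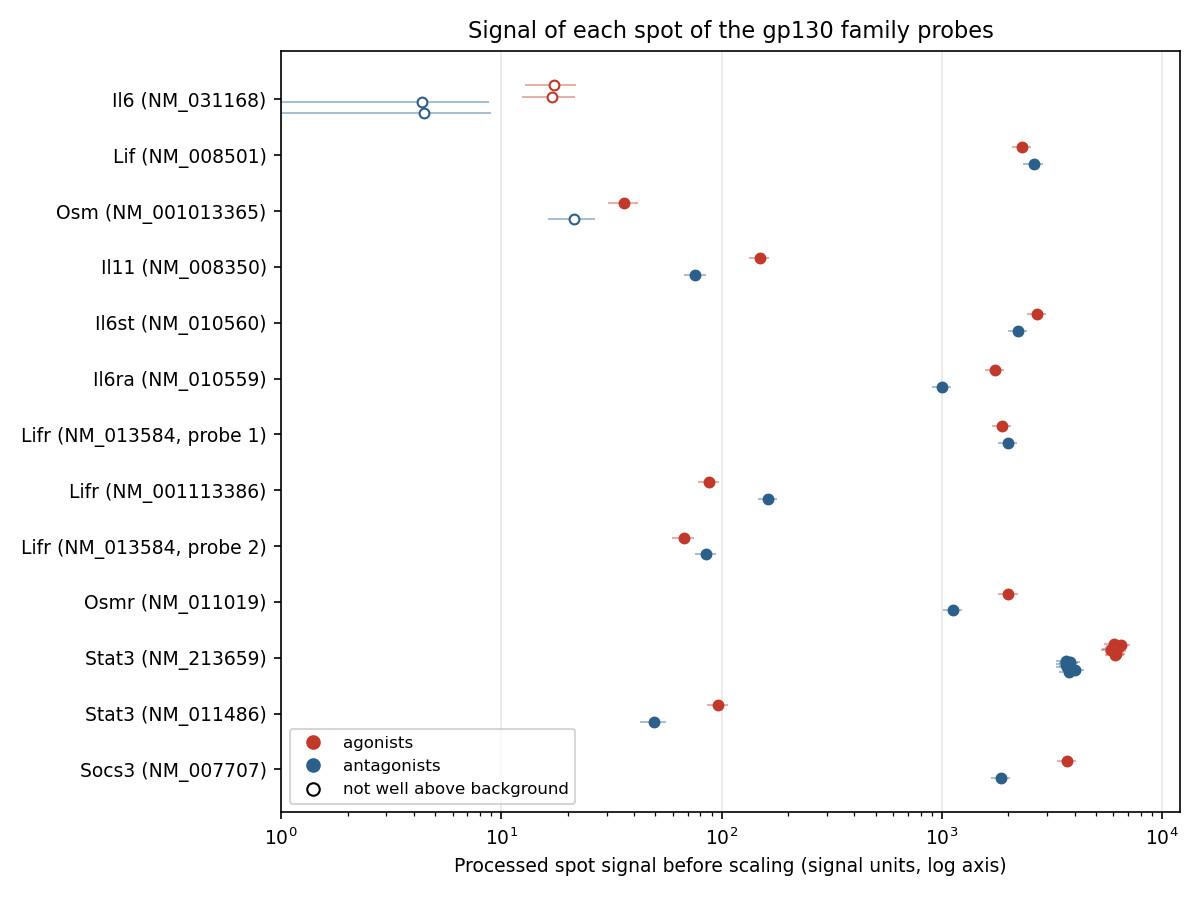
Processed signal of each spot of the 13 probes before scaling, on a log axis in signal units, for ovaries cultured with TKR agonists (red) or antagonists (blue). Bars are the software's error of the spot (those of Il6 with antagonists run off the axis) and open symbols mark spots not well above background. The Stat3 probe with 10 spots shows both groups of spots apart from each other, and Il6 and Osm lie at the dim end.

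Among the ligands, the difference went both ways. Il11, a cytokine known for its part in decidualization and stromal responses, had a signal of 148 ± 15.4 with the agonists and 76.0 ± 8.81 with the antagonists (software error, 1 spot each). Its log2 ratio was 0.72 ± 0.22, or 1.65-fold, and 6.90% of all genes had a ratio at least as high. With normexp the log2 ratio of Il11 was 0.37, so its size depended on the background correction. Lif, the ligand of the LIF receptor, read 2303 ± 230 with the agonists and 2603 ± 260 with the antagonists. Its log2 ratio was -0.42 ± 0.20, which placed it 1.34-fold higher with the antagonists, and 10.5% of all genes had a ratio at most as high. Within the same arrays, and so whatever the scaling by a constant, the ratio of Il11 exceeded that of Lif by 1.14 on the log2 scale.

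Osm and Il6 were too dim for a reliable ratio. Osm, a cytokine made mainly by blood-derived cells, had 36.2 ± 5.62 signal units with the agonists, well above background, and 21.3 ± 5.10 with the antagonists, not well above background. The agonist array read 1.43-fold higher, a nominal lower bound. The bound used the antagonist spot itself, since that spot lay above the lowest signal well above background on its array (19.9). It is thus the plain ratio of the 2 spots, a log2 of 0.52 with a software error of 0.41, and not a firm limit. This bound was lost with normexp, where its log2 was -0.076. Il6 was printed at 2 spots. They read 16.9 and 17.2 with the agonists, which the software called different from the local background but not well above it, and 4.46 and 4.35 with the antagonists, where neither call was made. Both agonist spots were brighter than both antagonist spots, and no fold is given because both groups were below the level of reliable signal.

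The receptor subunits differed among themselves. Osmr, the subunit that binds oncostatin M together with gp130, had a signal of 2002 ± 200.3 with the agonists and 1119 ± 112 with the antagonists. Its log2 ratio was 0.60 ± 0.20, or 1.51-fold, and 9.02% of all genes were at least as high. Il6ra, the subunit specific to interleukin-6, read 1742 ± 174 and 1001 ± 100.1 with agonists and antagonists. Its log2 ratio of 0.56 ± 0.20 was 1.47-fold and stood just short of 1.5-fold. Il6st, the gp130 subunit that all these ligands share, had 2709 ± 271 with the agonists and 2218 ± 222 with the antagonists. After scaling, its log2 ratio was 0.047 ± 0.20, a difference smaller than the error of its spots.

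Lifr, which pairs with gp130 to bind LIF, was lower with the agonists on each of its 3 probes. The brightest probe, for NM_013584, had 1877 ± 188 signal units with the agonists and 1998 ± 199.8 with the antagonists. The log2 ratio of that probe was -0.33 ± 0.20, and 17.7% of all genes were at most as high. A second probe for the same transcript read 67.4 and 85.0 on the agonist and antagonist arrays, for a log2 ratio of -0.58 ± 0.23. The probe for NM_001113386, another transcript of Lifr, read 87.9 with the agonists and 162 with the antagonists. At -1.12 ± 0.22 its ratio was 2.18-fold higher with the antagonists and the only one of the 11 family probes with a ratio that was past 2-fold. The 3 probes of Lifr thus shared a direction. The software errors of the 2 probes for NM_013584 overlapped, and the probe for NM_001113386 stood apart from both. Which of them reflects the receptor best was not tested. Compared within the arrays, the ratio of Osmr exceeded that of the brightest Lifr probe by 0.93 and the ratio of Il6ra exceeded it by 0.89, so the subunits did not share a ratio. The ratio of Il6st lay between them, 0.38 above that of Lifr and 0.55 below that of Osmr.

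Stat3, the transcription factor that the receptors activate, was the best measured gene of the family, with 10 spots of its main probe (NM_213659). With the agonists the 10 spots read 5847 to 6466, with a mean of 6106 ± 168 (SD over spots). The antagonist spots read 3640 to 4018, with a mean of 3781 ± 118 (SD over spots). Every agonist spot was brighter than every antagonist spot, and the log2 ratios of the 10 spots ran from 0.37 to 0.51 after scaling. Their mean was 0.45 with an SD of 0.046 over spots, or 1.37-fold, and 12.0% of all genes had a ratio at least as high. A dimmer probe for NM_011486, another Stat3 transcript, read 96.1 ± 10.5 and 49.1 ± 6.77 on the agonist and antagonist arrays, for a log2 ratio of 0.73 ± 0.25 in the same direction. The narrow spread of the 10 spots shows how well an array reads its RNA, and it gives no information on how far 2 cultures would differ.

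Socs3, the inhibitor that STAT3 induces, had the largest ratio of the 8 genes at this scaling, level with Il11 within the error of their spots, though not with normexp (0.76 for Socs3 and 0.37 for Il11). It read 3679 ± 368 (agonists) and 1854 ± 185 (antagonists), with 1 spot each. The log2 ratio was 0.75 ± 0.20, or 1.68-fold, and 6.61% of all genes were at least as high. It exceeded the ratio of Stat3 by 0.30 within the same arrays, or 1.23-fold. Under scaling on the spike-in controls, synthetic RNAs added during labelling, the log2 ratio of Socs3 was 1.02, past 2-fold, and that of Il11 was 0.99998, on the threshold itself. The plot of log2 ratios by probe shows these values beside their ranges.

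**Figure D2:**
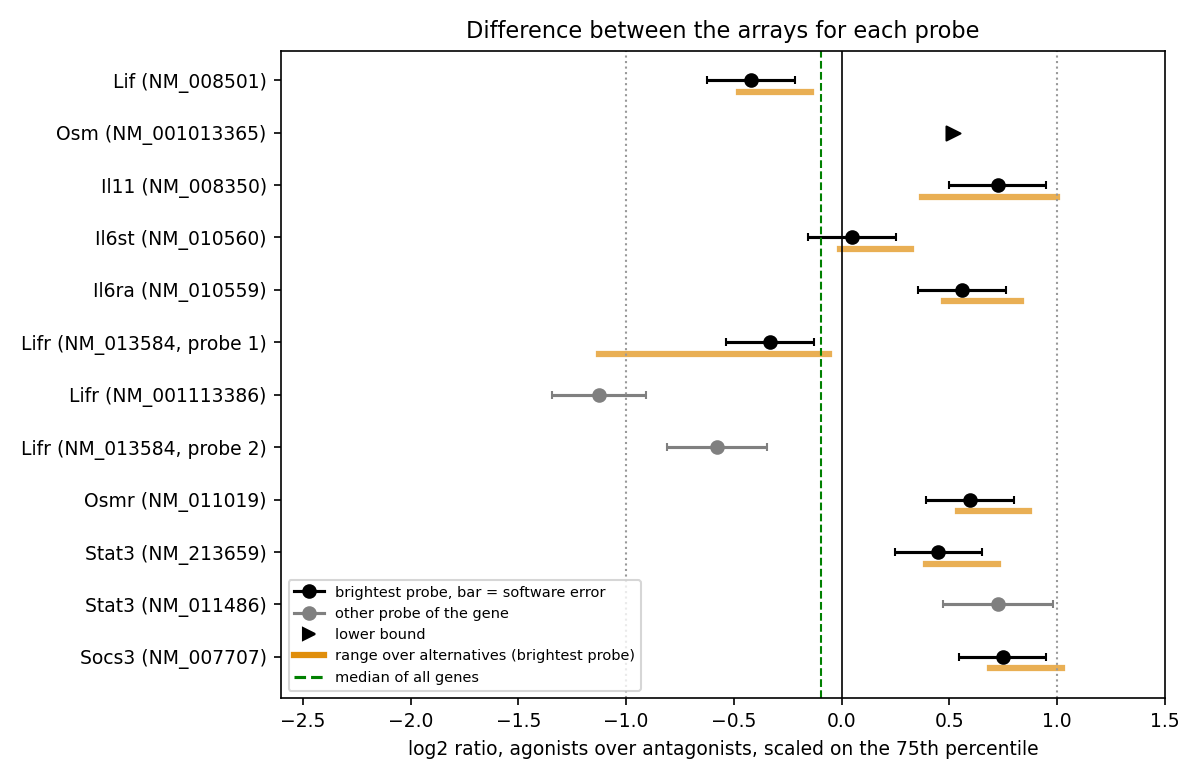
Log2 ratio, agonists over antagonists, of each family probe except Il6, after scaling on the 75th percentile. Black points are the brightest probe of a gene and grey points its other probes, and bars are the software's error. The arrowhead is the nominal lower bound of Osm, which is the plain ratio of its spots drawn without its error. Orange lines give the range of the brightest probe's gene over the processing alternatives. The green line is the median of all genes (-0.10) and dotted lines mark 2-fold. Socs3, Il11, Osmr, Il6ra and Stat3 lie to the right of 0 with their whole ranges, and Lif and Lifr to the left.

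The choice of scaling bears on the sign of small ratios. With no scaling the median of all genes moved by 0.24 on the log2 scale and with spike-in scaling by 0.28, each upwards, and by 0.10 and 0.11 with the authors' summary values and the loess correction. Relative to the median of all genes, Lif and Lifr stayed below and the other 6 genes above in the 75th percentile scaling, and no scaling by a constant can change that order. The direction of Il6st relative to 0 was not stable, since its log2 ratio was -0.0085 with scaling on the median. Lif and the brightest Lifr probe stayed below 0, but by little under some scalings. With no scaling their log2 ratios were -0.18 and -0.090, and with spike-in scaling they were -0.14 and -0.056. These values are smaller in size than the software error of 0.20.

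Of the other genes of the pathway, 28 were listed by role, with earlier results of these data known, and 26 were well above background on both arrays. Their median log2 ratio was 0.010, with 15 higher and 11 lower with the agonists. At least 2-fold higher were 2 of the 26, against 4.01% of all genes, and none was 2-fold lower. Among the other ligands, Clcf1, a cytokine that acts through the CNTF receptor, read 118 (agonists) and 46.8 (antagonists), for a log2 ratio of 1.10 ± 0.25. Ctf1 (cardiotrophin 1) had a log2 ratio of 0.37 over 10 spots, Ebi3 one of 0.37, Cntf one of 0.19 and Il27 one of -0.25. Il31 was not well above background on either array. Among the other receptors, Il27ra had a log2 ratio of 0.74 ± 0.30, Il31ra one of 0.26, Cntfr one of 0.013 and Il11ra1, the subunit that binds interleukin-11, one of -0.15.

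The kinases that gp130 uses differed little. Jak1, a kinase bound to gp130, read 12339 (agonists) and 12357 (antagonists), or -0.24 ± 0.20 on the log2 scale once scaled and near 0 before. Jak2 had a log2 ratio of 0.0072 and Tyk2 one of -0.18. Jak3, a kinase used mainly by lymphoid and myeloid cells through the common gamma chain, was higher with the agonists, at 269 against 113 signal units and a log2 ratio of 1.02 ± 0.21, and its second probe gave 1.43. Of the other STATs, Stat4 (0.55) and Stat6 (0.38) had the highest ratios, Stat5b had -0.16, and Stat5a (-0.43) and Stat2 (-0.53) the lowest, so that the ratio of Stat3 was not shared by the whole group. The 2 dimmer probes of Stat6, a factor activated by interleukin-4, gave 0.63 and 0.68. No inhibitor was past 2-fold. Ptpn6, a phosphatase of blood cells, was highest with a log2 ratio of 0.72, Socs1 had -0.26, and Pias3 was not well above background on either array.

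The genes that STAT3 is known to induce stood higher as a list. All 15 were well above background on both arrays, 14 were higher with the agonists and 1 lower, and their median log2 ratio was 0.51, against -0.10 for all genes. At least 2-fold higher were 5 of the 15, against 4.01% of all genes, and none was 2-fold lower. Saa3, an acute phase protein, read 744 (agonists) and 72.2 (antagonists), for a log2 ratio of 3.12 ± 0.22, or 8.72-fold. Lcn2, an iron-scavenging protein of inflammation, had 503 against 167 signal units and a log2 ratio of 1.35. Cebpd, a transcription factor of the acute phase, had 11407 against 3793 and also 1.35. Hp, haptoglobin, had 486 against 165 and a log2 ratio of 1.32. Bcl3, a nuclear partner of NF-kB, had 2420 against 1023 and stood at 2.00-fold, on the threshold itself. Of the 3 targets brightest by mean signal, Cebpd is given above and owes its place to the agonist array, since Timp1 (5104) and Cebpb (5043) were brighter than it on the antagonist array. Mcl1, a survival factor, had a log2 ratio of 0.11, and Bcl2l1, another survival factor, had -0.35 and was the 1 lower gene. Below 2-fold, Timp1, an inhibitor of metalloproteinases, had a log2 ratio of 0.64, Ccnd1 (cyclin D1) one of 0.33, Myc one of 0.31 and Cebpb, a transcription factor of the acute phase, one of 0.14. Many of these targets are also induced by other signals such as NF-kB. The direction differed between the brighter and the dimmer probe for Il4ra (0.51 and -0.29), Mcl1 (0.11 and -0.18) and Bcl2l1 (-0.35 and 0.10). The count of 14 higher and 1 lower thus rests on the brighter probes. The list was chosen with earlier results of these data known, so its direction is no independent evidence.

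**Figure D3:**
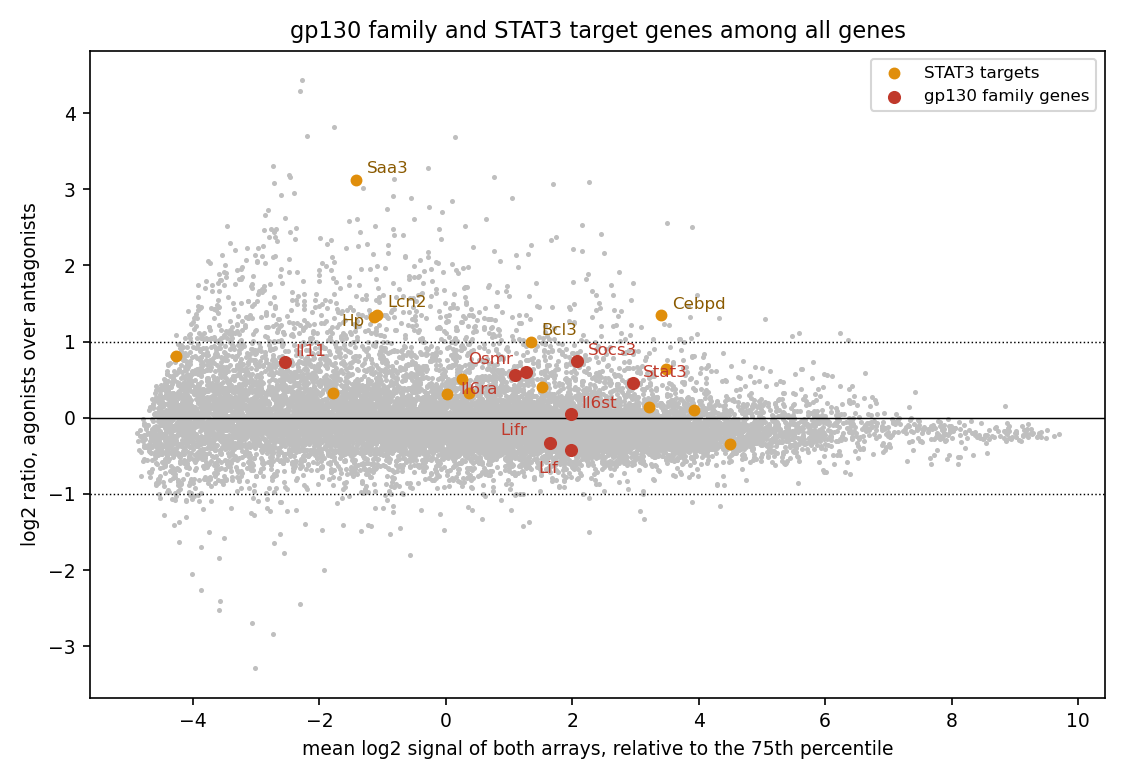
Log2 ratio, agonists over antagonists, against the mean log2 signal of both arrays relative to the 75th percentile, for the 15258 genes well above background on both arrays (grey). Family genes are red and STAT3 targets orange, and dotted lines mark 2-fold. The family genes lie inside the dotted lines and 5 of the targets, led by Saa3, lie on or above the upper one.

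Markers of several cell types also differed between the arrays, and in bulk tissue fewer cells of a type and less RNA per cell cannot be told apart. Markers of the ovary were found: all 6 oocyte markers, led by Gdf9, all 6 granulosa markers and 4 of 5 theca markers were well above background on both arrays, while Lhcgr was on neither. The median log2 ratio was -0.67 for granulosa markers (1 higher, 5 lower, summed scaled signal 98.7 with agonists and 141 with antagonists), -0.40 for theca markers (1 higher, 3 lower, 25.5 and 32.7) and 0.070 for oocyte markers (3 higher, 3 lower, 201 and 212). The 1 higher theca marker was Cyp11a1, at 0.79. The 1 higher granulosa marker was Foxl2, at 0.32, with -0.37 on its dimmer probe. Star, a lower theca marker (-0.40), had 0.010 on its dimmer probe. The median was 1.01 for surface epithelium (6 of 6 higher, 37.1 and 17.4), 0.71 for smooth muscle (4 of 4 higher, 37.8 and 23.1), 0.45 for endothelium (3 of 4 higher, 59.7 and 53.7) and 0.34 for fibroblasts (4 of 5 higher, 365 and 308). The 1 lower endothelial marker was Kdr (-0.27), with 0.38 on a dimmer probe of 10 spots. Tek, another endothelial marker, was well above background with the agonists only, with a nominal lower bound of 4.10-fold. For macrophages the median was 0.51, with 5 of 6 higher and a summed scaled signal of 20.6 and 20.4 in which Itgam weighed most. Itgam was lower with the agonists on its brightest probe (-0.31) and on another (-0.39), and higher on 1 more (0.64). Of the macrophage genes, Mrc1 (1.82) and Adgre1 (1.42) were past 2-fold, though the dimmer probe of Adgre1, at 0.72, was not. Csf1r had 0.15, with -0.093 and 0.044 on its dimmer probes. The pan-leukocyte gene Ptprc was well above background with the agonists only. The brightest markers of the other lists were Inha (-0.68) for granulosa cells, Cyp17a1 (-0.41) for theca cells, Krt18 (1.03) for surface epithelium, Tagln (0.81) for smooth muscle, Egfl7 (0.41) for endothelium and Dcn (0.34) for fibroblasts. Neutrophil markers gave no ratio beyond that of Csf3r (-0.14), whose probe read 78901 and 73526 signal units with agonists and antagonists. S100a9 was well above background with the agonists only and S100a8 and Cxcr2 on neither array. Whether so bright a Csf3r probe reads neutrophil transcript was not tested. Of the T cell markers Cd3e had -0.22, Cd3g -0.42 and Cd4 0.10, with Cd8a not well above background on either array. That Cd4 probe read 6019 and 4736 signal units, while another Cd4 probe read 33.2 and 29.6, with a log2 ratio of -0.070. The ratios of Osmr, Il6ra, Il11, Stat3, Socs3 and Il6st lay within the pooled range of the stromal and macrophage markers. That range ran from -0.31 (Itgam), with 80.6% of all genes at least as high, to 1.82 (Mrc1), with 0.957%. The ratios of Lif, Lifr and also Il6st lay within the range of the granulosa markers. This ran from -1.17 (Inhbb), with 0.360% of all genes at most as high, to 0.32 (Foxl2), with 83.7%. Both ranges thus take in most genes, so lying within them says little of a gene. These ranges overlap and do not separate cell types. The theca markers, from -0.41 to 0.79, spanned the ratios of all these genes but Lif. The T cell markers, from -0.42 to 0.10, spanned those of Lif, Lifr and Il6st. The part of these cell types in the ratios of the family and of the STAT3 targets was not tested.

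**Figure D4:**
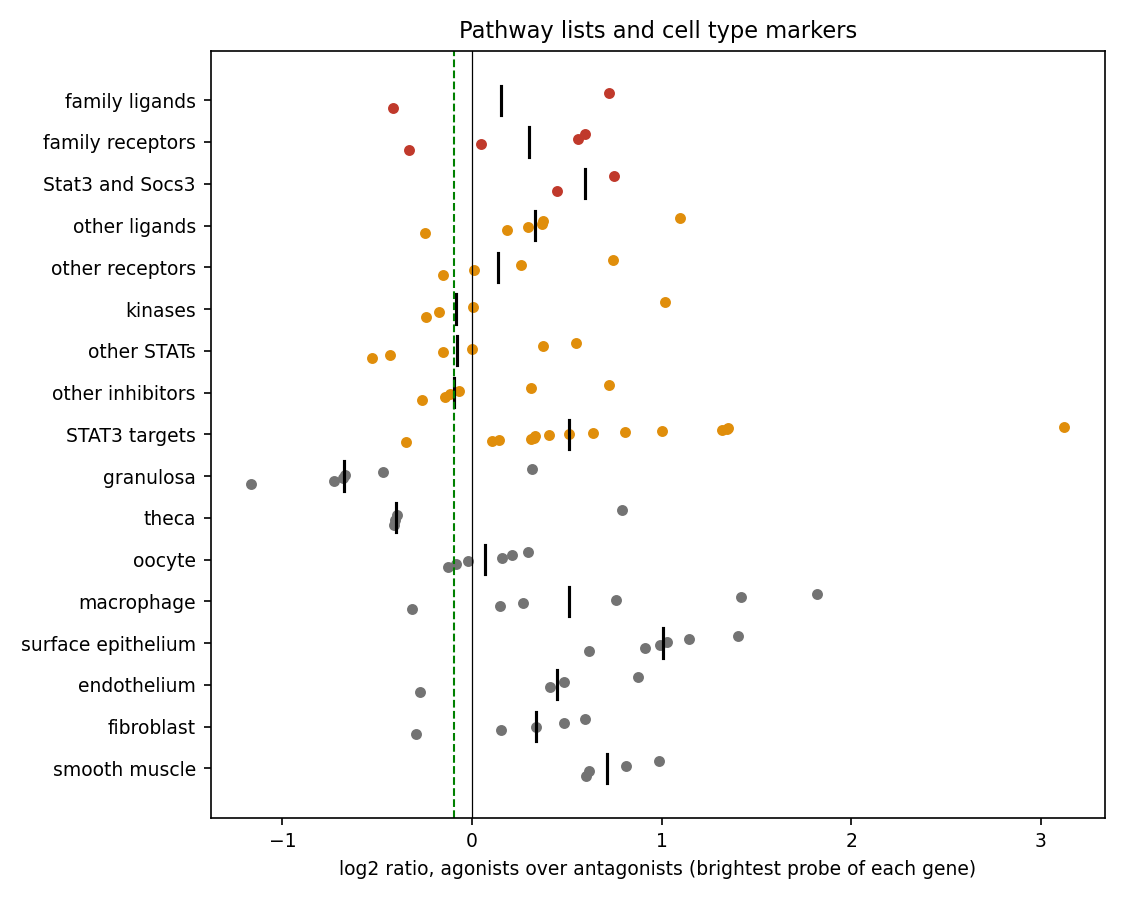
Log2 ratio, agonists over antagonists, of the brightest probe of each gene well above background on both arrays, by list: family genes (red), other pathway genes and STAT3 targets (orange) and cell type markers (grey). Black ticks are list medians and the green line is the median of all genes (-0.10). STAT3 targets, surface epithelium and smooth muscle lie mostly to the right, and granulosa markers mostly to the left.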

How the data were processed

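Gene expression was measured on 1 Agilent SurePrint mouse array for each of the groups, agonist and antagonist. The authors deposited linear spot intensity values from Agilent Feature Extraction 10.10.1.1, background-subtracted and detrended within the array, with no scaling between arrays. Their summary table holds the same intensity times a constant, 1.99 for the agonists and 2.19 for the antagonists. Of 59305 spots that are not controls, 65.4% and 61.6% were well above background with agonists and antagonists, and 0 were saturated. Intensities were taken as log2, reduced by the array's 75th percentile and averaged over the spots of a probe without outlier spots. For a probe with several spots, over 50% of them had to be well above background. A gene was represented by its brightest probe, named through RefSeq transcripts (27230 of 55674 probes). No coordinates of the array design (mm9) were used. The family, the lists and the alternatives were chosen with earlier results of these data known. All 10 family genes are named, with the JAKs, STATs, ligands and receptors listed (2 of these, counted in their lists, are not reported here), inhibitors and targets past 2-fold, and the 3 brightest targets. The normexp alternative used the median spot signal, as the files used here hold no mean spot signal. The number of arrays limits the precision, and no test was possible. Python 3.11.15, R 4.3.3 and limma 3.58.1 were used, and the calculation was tested on simulated data.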

Additional observations from a re-analysis of the deposited data

How the results depend on the processing

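The alternatives were other scalings, the authors' values, normexp (a background correction, offset 50), medians over spots or probes and other filters. No paired analysis was possible because there is 1 array a group and the data allow no test. Of 108 values of single family genes under the alternatives, 88 stayed within the software error of the main value. Another 18 differed by more in the same direction, and 2 changed sign: Il6st (-0.0085, scaling on the median) and the bound of Osm (-0.076, normexp). Part of the 88 could not differ from the main value, so the count overstates stability. No family spot was flagged as an outlier, and filters on dim probes leave the 8 bright genes unchanged. Medians over spots or probes can change only genes with several spots or probes. The family median, 0.50, became 0.75 without scaling and 0.78 on the spike-in controls. The median of the STAT3 targets, 0.51, became 0.75 and 0.79. That of the other pathway genes, 0.010, became 0.25 and 0.29. All of these moved by the shift of all genes. With normexp the family median was 0.42 and that of the targets 0.37, and the targets had 0.40 with the median over the probes of a gene. The median of the other pathway genes was -0.046 with scaling on the median and -0.010 with normexp. The number of family genes at least 2-fold higher, 0, was 1 with spike-in scaling (Socs3, with Il11 on the threshold at 0.99998), 1 with no filter on dim probes (Il6) and 3 at 1.5-fold. The number at least 2-fold lower, 0, was 1 (Lifr, -1.12) with the median signal over the probes of a gene, which on both arrays is that of the NM_001113386 probe. The median of the 3 Lifr ratios is -0.58. Signal over background limits Il6 and Osm.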
